A study of Mus musculus with 3 samples.

Results

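The 45 genes described here encode the proteins that copy DNA: the origin recognition complex, the factors that load and activate the replicative helicase, the polymerases with their clamp and clamp loader, the single-strand binding complex, the enzymes that finish lagging-strand fragments, and the enzymes that supply deoxynucleotides. The genes were chosen by name, and every probe set that the platform annotation gives to 1 of them alone was taken. All 45 were measured, by 100 of the 34945 probe sets with a single gene symbol. The arrays measured 18193 genes in all.

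RNA came from fetal kidneys of mice carrying the transgene Tg(Meis1-EGFP)FO156Gsat on the CD-1 strain, at E15.5 (Theiler stage 23), sex unknown. Green fluorescent protein in these mice is driven by control elements of Meis1, so the sorted population is defined by activity of the reporter and not by position in the kidney. About 20 kidneys were pooled, digested in trypsin and sorted for green cells, and total RNA amplified in 2 rounds was hybridised to 1-colour arrays. There were 3 arrays in 1 group, with no unsorted kidney and no negative sort. The series names the cells both peripheral blastema and nephrogenic interstitium.

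DNA replication in animal cells begins in G1, when the origin recognition complex, Cdc6 and Cdt1 place Mcm rings on the DNA. At the start of S phase Cdc45 and the Gins complex join the rings and turn them into an active helicase, after which polymerase alpha lays primers and polymerases delta and epsilon extend them. Transcription of many of these genes is under E2F factors, which are held back by Rb proteins in resting cells. The outer stroma of the fetal kidney is a growing tissue whose progenitors divide while they give rise to interstitial, mesangial and mural cells.

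The deposited signals had been scaled to a trimmed mean of 1500.01 on each array. Background was set for each array at the 95th percentile of 72 chemosensory receptor genes, which gave signals of 135, 185 and 168 in replicates 1, 2 and 3. Distances are log2 signal minus this level, and a gene was called above background when limma's one-sided test passed an adjusted p of 0.05 over all genes. Of the cell type markers, 8 of 8 measured genes of cortical stroma were above background, among them Meis1, whose control elements drive the reporter. So were 4 of 7 of nephron progenitors, 2 of 6 of the ureteric bud and 3 of 5 of endothelium. For erythroid cells 0 of 4 were, and for leukocytes 1 of 5. The share over all genes tested was 57.3%, close to that of the nephron progenitor (57.1%) and endothelium (60%) lists. Distances in the nephron progenitor list ran from -4.20 ± 0.20 log2 units for Cited1 to 3.47 ± 0.27 for Eya1 (SE), with Six2 at 1.86 ± 0.21. The part of cells other than stroma in the replication signal was not tested.

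All 45 replication genes were above background, against 57.3% of all genes tested. All 45 also exceeded the level on each array, as did 59.2% of all genes. Their adjusted p-values in limma's test ran from 7.78e-07 to 0.000121. Distances ran from 1.90 log2 units for Tyms to 8.17 for Rrm2, with a median of 5.35, against a median of 1.52 over all genes and 3.89 over the genes above background. There were 37 members that lay 4 or more log2 units above background, as did 27.5% of all genes. Probe sets differ in affinity, so the order of genes by signal is not an order of transcript number. In a sorted bulk population, the share of replicating cells and the amount of RNA per replicating cell cannot be told apart.

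**Figure D1:**
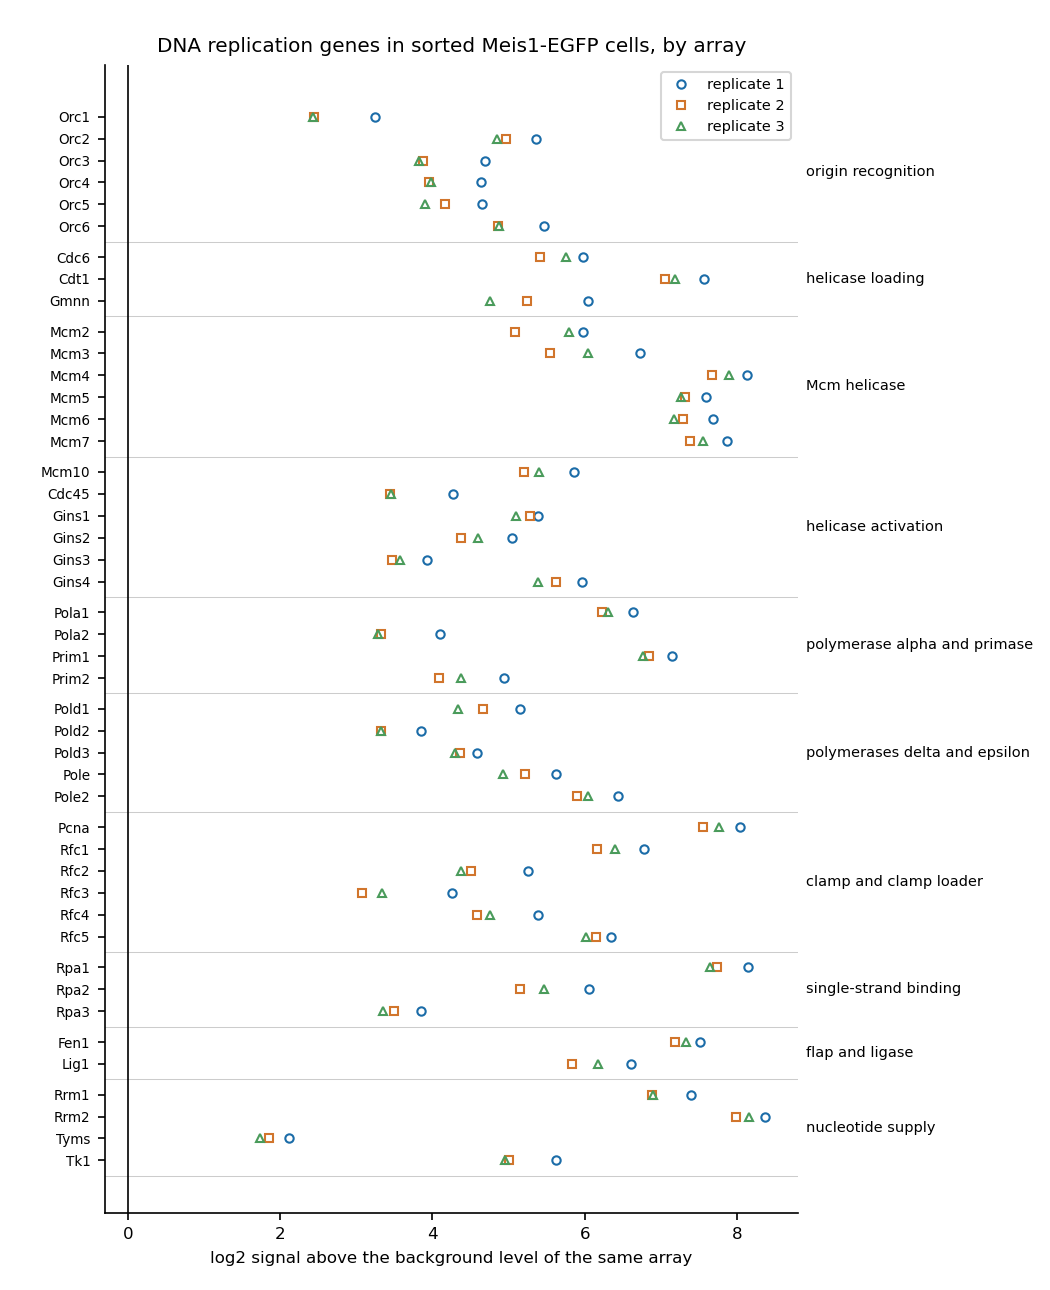
Log2 signal of each replication gene above the background level of the same array (horizontal axis), 1 row per gene in blocks by role, with a circle, square or triangle for replicates 1, 2 and 3. Every point lies right of the background line at 0, and Tyms lies nearest to it at 2.11, 1.86 and 1.74.

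In the plot of the members by array, replicate 1 is the farthest right for all 45 members. The same held for 86.8% of the genes above background, and replicate 1 had the lowest background level, at log2 7.08 against 7.53 and 7.40. Differences between arrays are therefore given further on from the signals themselves, after each array was centred on its median over all genes.

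Promoter sequence was compared first, because it is a feature that the choice of genes did not use. RefSeq promoter windows of 300 bases on build GRCm38.p6 (250 before to 50 after the annotated start) were at hand for 37 members, in 45 windows. Those without an entry were Gmnn, Mcm4, Gins1, Gins2, Gins4, Prim2, Pole and Rfc2. E2F-type motifs were searched on both strands in 4 forms. These were TTGGCGC, which has a GG centre, and TTCCCGC, in which the centre is CC, together with the mixed forms. The mixed forms were TTCGCGC, where C precedes G at the centre, and TTGCCGC, where the order at the centre is turned round. At least 1 match was present in 24 of 37 members (64.9%), against 16.0% of the 14452 measured genes with a window and 10.9% of all 27025 genes in the table. It was present in 18 of 41 further replication genes (43.9%) and in 0 of 19 mitosis genes.

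The matches were spread over the roles. They were found in 3 of 6 origin recognition genes, 2 of 2 helicase loading genes, 4 of 5 Mcm helicase genes, 1 of 3 helicase activation genes and 2 of 3 genes of polymerase alpha and primase. They were also found in 3 of 4 genes of polymerases delta and epsilon, 3 of 5 of the clamp and its loader, 2 of 3 of the single-strand binding complex, both genes of lagging-strand processing and 2 of 4 genes of nucleotide supply. In Cdt1, Mcm3, Pold1, Pold3, Pole2, Rfc1, Rfc4 and Lig1 every match lay after the annotated start. At least 2 matches were held by 9 of 37 members (24.3%), against 2.14% of measured genes. In some of these a match on one strand overlaps a match on the other, and each was counted.

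The stretches below show 8 of these promoters, chosen as examples of different roles with a match before the start. Each is 50 bases long, runs 5′ to 3′ on the strand of the gene, ends before the annotated start, and has the E2F-type letters in capitals. Mcm5 and Mcm6 show matches that overlap on opposite strands, and the others show single sites or separate ones.
Orc1, chr4:108579404-108579453, plus strand: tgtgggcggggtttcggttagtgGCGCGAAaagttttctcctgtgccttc
Cdc6, chr11:98907992-98908041, plus strand: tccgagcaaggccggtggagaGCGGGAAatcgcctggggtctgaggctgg
Mcm5, chr8:75109339-75109388, plus strand: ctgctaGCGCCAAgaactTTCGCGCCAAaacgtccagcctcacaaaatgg
Mcm6, chr1:128359720-128359769, minus strand: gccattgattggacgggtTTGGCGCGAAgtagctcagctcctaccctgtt
Pola1, chrX:93632248-93632297, minus strand: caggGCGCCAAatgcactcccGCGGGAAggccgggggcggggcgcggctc
Prim1, chr10:128015165-128015214, plus strand: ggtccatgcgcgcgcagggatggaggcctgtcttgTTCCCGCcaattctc
Fen1, chr19:10203927-10203976, minus strand: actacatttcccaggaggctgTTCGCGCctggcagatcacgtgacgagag
Rrm1, chr7:102441607-102441656, plus strand: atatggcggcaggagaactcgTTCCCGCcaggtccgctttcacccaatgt

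The 13 members with a window and no match were also above background on these arrays, among them Pcna, Tk1, Tyms, Mcm2 and Cdc45. A match is a run of letters and not a measured binding site, and its absence says only that these letters are not in the window. The letters CCAAT, the core of the box bound by NF-Y, were in the windows of 23 of 37 members (62.2%), 14 of 19 mitosis genes (73.7%) and 42.0% of measured genes. The GC box letters GGGCGG were in 28 of 37 members (75.7%), 16 of 19 mitosis genes (84.2%) and 57.3% of measured genes. Median GC content was 60.0% in member windows, 58.0% in those of mitosis genes and 58.3% in those of measured genes, and its part in the motif shares was not tested.

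**Figure D2:**
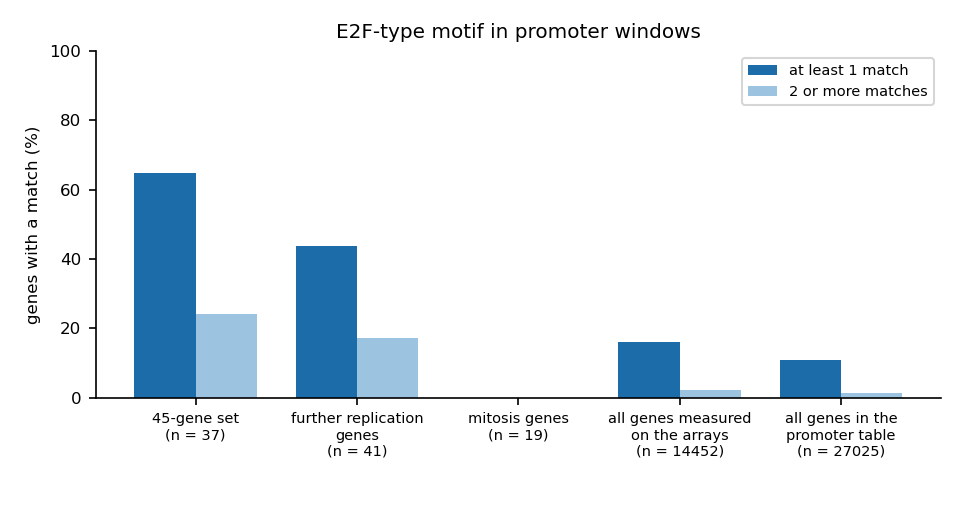
Share of genes (vertical axis, percent, from 0) whose promoter window holds at least 1 E2F-type match (dark bars) or 2 or more (pale bars), for the replication genes, further replication genes, mitosis genes, all measured genes and all genes in the promoter table. The replication genes stand at 64.9% and the mitosis genes at 0%, with measured genes at 16.0%.

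The origin recognition complex marks the sites where replication can start, and its subunits Orc1 to Orc6 lay 2.71 to 5.07 log2 units above background, with a median of 4.21. Orc1, the subunit that in human cells is degraded as S phase proceeds, had signals of 1282, 1001 and 907 in replicates 1, 2 and 3 and lay 2.71 ± 0.25 above (SE, n = 3 here and below). Orc2 had signals of 5533, 5745 and 4843, and Orc6 had 5978, 5369 and 4973. Orc3, Orc4 and Orc5, which form the body of the complex, lay 4.13 ± 0.26, 4.19 ± 0.24 and 4.23 ± 0.24 above.

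Helicase loading needs Cdc6 and Cdt1, and Gmnn encodes geminin, which binds Cdt1 and blocks a second round of loading in the same cycle. Cdt1 had signals of 25535, 24521 and 24414 and lay 7.27 ± 0.22 above background. Cdc6 had 8531, 7871 and 9066 and lay 5.72 ± 0.22 above. Both were close between arrays, with SDs of 0.02 and 0.11 log2 units after centring. Gmnn was not close: its signals were 8881, 6971 and 4552, and it lay 5.35 ± 0.29 above background. Its SD of 0.47 was the highest of the 45 members and exceeded that of 97.1% of the genes above background, and it rests on 1 probe set.

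Mcm2 to Mcm7 form the ring-shaped helicase that unwinds DNA, and they lay 5.62 to 7.89 log2 units above background. Mcm4 had signals of 37786, 37533 and 39803 and lay 7.89 ± 0.21 above. Mcm7 had 31549, 30757 and 31462 and lay 7.60 ± 0.22 above. Mcm5 and Mcm6 both lay 7.38 above, with SEs of 0.21 and 0.22. Except for Mcm4, these values come from probe sets ending in _s_at or _x_at. Without such probe sets Mcm3 lay 4.10, Mcm7 4.37, Mcm5 5.51, Mcm2 5.59 and Mcm6 7.09 above. Mcm2 and Mcm3 varied more between arrays, with SDs of 0.30 and 0.35. Mcm2 had signals of 8502, 6263 and 9330, and Mcm3 had 14177, 8598 and 11109, so both were lowest in replicate 2. For Mcm2 a second probe set with a similar mean gave 8138, 7868 and 7382, without a low value in replicate 2. For Mcm3 the next probe set gave 7682, 5884 and 7519, again lowest in replicate 2.

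The loaded rings are activated by Mcm10, Cdc45 and the 4 Gins subunits, which lay 3.66 to 5.66 log2 units above background. Cdc45, which joins the rings together with the Gins complex, had signals of 2602, 2006 and 1842 and lay 3.72 ± 0.25 above. Mcm10 had 7858, 6819 and 7087. Gins4 lay 5.66 ± 0.22 above, Gins1 5.26 ± 0.20, Gins2 4.67 ± 0.23 and Gins3 3.66 ± 0.21. Gins3 was the steadiest member, with signals of 2051, 2043 and 2003.

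Polymerase alpha and primase start each new strand with a short primer. The primase catalytic subunit Prim1 had signals of 19004, 21200 and 18347 and lay 6.92 ± 0.21 log2 units above background, and its partner Prim2 lay 4.46 ± 0.25 above. The catalytic subunit Pola1 had 13344, 13822 and 13222 and lay 6.38 ± 0.21 above, and the accessory subunit Pola2 had 2319, 1847 and 1646 and lay 3.57 ± 0.25 above. Polymerase epsilon, which extends the leading strand, showed its catalytic subunit Pole at 5.25 ± 0.23 and Pole2 at 6.12 ± 0.22. Polymerase delta, which extends the lagging strand, showed its catalytic subunit Pold1 at 4.71 ± 0.24, Pold2 at 3.51 ± 0.22 and Pold3 at 4.42 ± 0.20.

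Pcna encodes the sliding clamp that holds polymerases on DNA, and Rfc1 to Rfc5 encode the loader that opens it. Pcna had signals of 35444, 34579 and 36385 and lay 7.78 ± 0.21 log2 units above background. The loader subunits lay 3.56 to 6.45 above, with Rfc1, the large subunit, at 14775, 13259 and 14252. Rfc3 had signals of 2566, 1566 and 1701, and its SD of 0.37 was above that of 92.1% of the genes above background. Rfc5 had 10948, 13173 and 10938 and was highest in replicate 2.

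The single-strand binding complex RPA coats unwound DNA. Its large subunit Rpa1 had signals of 38018, 39502 and 33750 and lay 7.84 ± 0.22 log2 units above background, while Rpa2 lay 5.55 ± 0.25 and the small subunit Rpa3 3.56 ± 0.22 above. Fen1, the nuclease that trims the flaps of lagging-strand fragments, had 24595, 27015 and 26989 and lay 7.34 ± 0.21 above. This was a probe set ending in _x_at, and the other Fen1 probe set had 1981, 1262 and 1204 and lay 3.16 ± 0.30 above. Lig1, the ligase that joins the fragments, had 13164, 10502 and 12245 and lay 6.21 ± 0.24 above.

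Deoxynucleotides are made by ribonucleotide reductase, with subunits Rrm1 and Rrm2, by thymidylate synthase, encoded by Tyms, and from salvaged thymidine by Tk1. Rrm2, the subunit whose level follows S phase, had signals of 44598, 47037 and 48173 and lay 8.17 ± 0.21 log2 units above background. Rrm1 had 22600, 21848 and 20169 and lay 7.06 ± 0.22 above. Tk1 had 6653, 5923 and 5206 and lay 5.19 ± 0.23 above. Tyms had 583, 669 and 560 and lay 1.90 ± 0.21 above (3.73-fold; limma adjusted p = 0.000121), the smallest distance of the 45.

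The Tyms call rests on 1 of 4 probe sets. The other three lay at -0.42 ± 0.24, -1.37 ± 0.22 and -2.45 ± 0.34 log2 units. With the mean over probe sets taken for every gene, which also resets the background level, Tyms lay at -0.39. Another probe set, which the annotation gives to both Tyms and its pseudogene Tyms-ps and which therefore falls outside the rule, had signals of 11537, 8797 and 8714. The distance of 1.90 therefore describes only the brightest of the probe sets that carry the symbol Tyms alone.

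Over all members, 85 of 100 probe sets were above background, against 48.7% of all probe sets tested with limma. There were 33 members with more than 1 probe set. In 20 of them (60.6%) every probe set was above background, against 25.6% of the 9010 genes with more than 1 probe set, and in 13 some were and some were not. The log2 ratio of 3′ to 5′ control probe sets of Gapdh was 5.00, 5.39 and 5.26 in replicates 1, 2 and 3, and its part in the differences between probe sets of a gene was not tested.

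**Figure D3:**
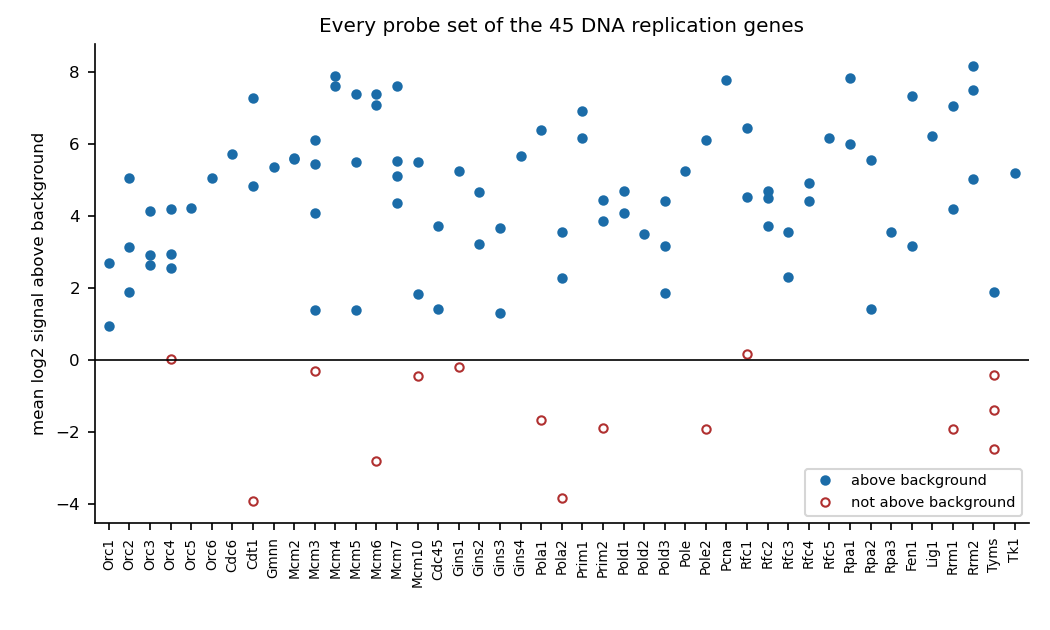
Mean log2 signal above background of each of the 100 probe sets (vertical axis) by gene (horizontal axis), filled where limma called the probe set above background and open where it did not. Each gene has at least 1 filled point, and 15 points are open, 3 of them for Tyms.

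The spread between arrays was small. The SD of a member over the 3 arrays, after centring, had a median of 0.14 log2 units and ran from 0.01 to 0.47, against a median of 0.16 over all genes above background. Each array is 1 pool, so a difference between arrays has no test. Whether separate litters gave the pools is not stated, so the p-values measure the spread of these samples alone, which may be technical.

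Members were most often highest in replicate 1 and lowest in replicate 3. After centring, 24 of 45 (53.3%) were highest in replicate 1, against 36.7% of the genes above background, and 22 of 45 (48.9%) were lowest in replicate 3, against 35.4%. The median member was 0.08 log2 units higher in replicate 1 than in the mean of the other arrays, and 0.12 lower in replicate 3 (-0.12), beside a median SD of 0.14. The genes above background had medians of 0.02 and -0.02. The members' value for replicate 1 depended on the scaling: it was 0.14 with quantile normalization, 0.11 without centring and 0.01 with arrays centred on the genes above background, where that for replicate 3 was -0.07. The mitosis genes had medians of -0.03 and 0.03 in these arrays. The further replication genes had 0.09 and -0.02.

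All 6 origin recognition genes were lowest in replicate 3, with a median difference of -0.25 log2 units from the mean of the other arrays. Of the genes above background, 35.4% were lowest there. In the other roles the counts ran from 0 of 2 for lagging-strand processing to 3 of 4 for nucleotide supply, with 1 of 6 for the Mcm helicase. The planned comparison of arrays covered the members as a whole and not the separate roles. Orc5 and Orc6 have 1 probe set each, so a second probe set could be compared only for the others. Of the 4 origin recognition genes with a second probe set above background, none had its lowest centred value in replicate 3 there. The second probe set of Orc1 had signals of 259, 215 and 544, highest in replicate 3, but lay only 0.95 ± 0.33 above background. That of Orc2 had 1450, 1169 and 1741, also highest in replicate 3. In that of Orc3, replicate 3 still differed by -0.11 from the mean of the other arrays, and replicate 1 by -0.43. That of Orc4 was level, at 1255, 1247 and 1230, with differences of -0.01, 0.01 and -0.01 after centring.

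Second probe sets gave the same comparison for 29 members. After centring, the array with the lowest value was the same in both probe sets of 9 members (31.0%). This was so in 42.7% of the 4243 genes with at least 2 probe sets above background. The order of the 3 arrays by centred value was the same in 6 members (20.7%), against 23.8% of those genes. These members were Cdt1, Prim1, Pold1, Rfc2, Rfc4 and Rrm2. For Rfc2 the brightest probe set gave 5147, 4204 and 3495 and the next 4349, 3629 and 3053, both highest in replicate 1 and lowest in replicate 3. In the median over the 29 members, the second probe sets were 0.15 log2 units higher in replicate 1 and 0.08 lower in replicate 3 (-0.08), against 0.13 and -0.08 in their brightest ones. Over the 4243 genes the medians were -0.02 and 0.03 in the second probe sets, and -0.02 and -0.01 in the brightest ones.

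**Figure D4:**
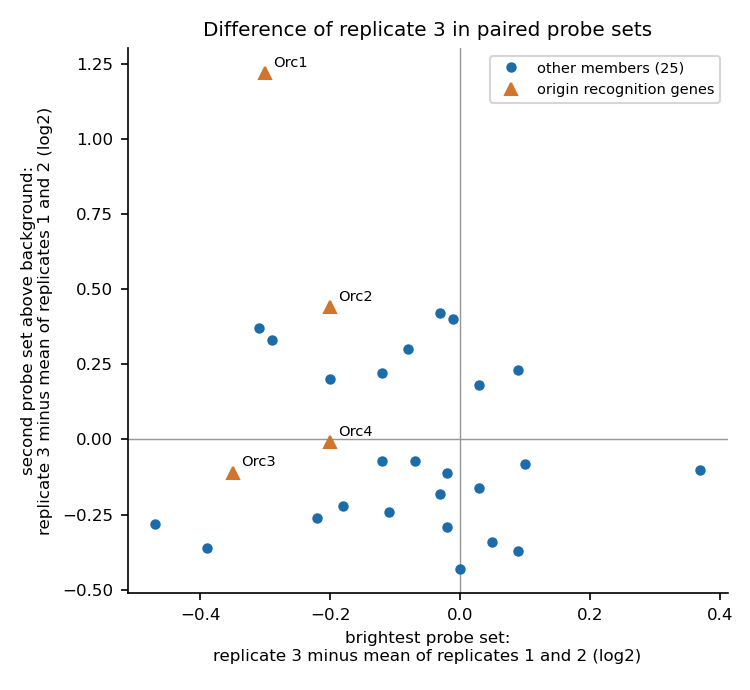
Difference of replicate 3 from the mean of replicates 1 and 2, in log2 units after centring, in the brightest probe set (horizontal axis) and in the second probe set above background (vertical axis) of 29 members. Triangles are origin recognition genes: all 4 lie left of 0, between -0.35 and -0.20, while on the vertical axis they range from -0.11 for Orc3 to 1.22 for Orc1.

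Other genes of DNA replication were taken from a separate list. All 45 of them that are analysed here were above background, with a median distance of 5.20 log2 units. Among genes that fire origins, Dbf4 and Cdc7, which form the kinase that activates Mcm rings, lay 6.81 ± 0.21 and 7.06 ± 0.22 above. At the fork, Pold4, the smallest subunit of polymerase delta, lay 0.74 ± 0.21 above (limma adjusted p = 0.0116), the smallest distance in this list, and Pole3 of polymerase epsilon lay 4.97 ± 0.23 above. Of the histone chaperones, Chaf1b lay 2.70 ± 0.24 and Asf1a 6.33 ± 0.21 above.

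Among nucleotide enzymes, Dut, which removes dUTP, lay 7.17 ± 0.21 log2 units above background and the deoxycytidine kinase Dck 5.51 ± 0.22. The Mcm relatives Mcm8 and Mcm9, which act in DNA repair, lay 2.68 ± 0.23 and 5.02 ± 0.21 above. All 24 mitosis genes were above background as well, with a median of 6.04, among them the kinases Aurka at 4.68 ± 0.23 and Aurkb at 6.15 ± 0.21. Both lists are compared with the same 57.3% of all genes, and nothing here sets the replication genes apart from them in detection.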

How the data were processed

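The authors deposited linear intensity values of 1-colour arrays, with a value for each probe set. GCOS is named in the submitters' processing notes, and how it computed and scaled the signals is not given in the sources used here. All values were above 0, and no pseudocount was added before log2. Of 45101 probe sets, 64 controls, 932 with several symbols and 9160 with none were set aside. Symbols were checked by Entrez ID in a RefSeq table (34741 matched, none changed). For each gene, the probe set brightest in mean log2 signal was used. Log2 signal minus background was tested above 0 with limma 3.58.1 in R 4.3.3 (lmFit with an intercept, eBayes, prior df 3.88), one-sided. Benjamini-Hochberg adjustment ran over 18193 genes, or over 34945 probe sets for probe set calls. SEs carry the spread of the background levels. The number of arrays limits the precision. The code was tested on simulated data. Motifs and figures used Python 3.11.15. The members and lists were chosen with earlier results of these data known. All members were named, and of the further replication and mitosis lists every gene not above background (up to 6) and the first 2 above it in list order. Six2, Cited1, Eya1 and Meis1 were named from the marker lists after their values were seen. Alternatives varied the background percentile, probe set rule, scaling, filter and arrays.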

Additional observations from a re-analysis of the deposited data

Results flagged for a closer look

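A probe set outside the comparisons, annotated to both Tyms and Tyms-ps, carried a signal above the background level on all 3 arrays. It lay 6.42, 5.57 and 5.69 log2 units above background in replicates 1, 2 and 3 (mean 5.89, SD 0.46, n = 3), while the brightest probe set of Tyms alone lay 1.90 above. A second probe set shared with a member, given to Orc4 and Acvr2a, lay below background on all 3 arrays (mean -1.46).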

How the results depend on the processing

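All 45 members were above background with the level at the 90th or 99th percentile, without probe sets ending in _s_at or _x_at, with quantile normalization, without the dimmest 25% of genes, with the untested requirement to exceed the level on each array, and without replicate 1, 2 or 3 (45 to 45). Over the same settings the share of all genes ran from 52.9% to 60.5%, and from 54.7% to 57.1% when a replicate was left out. Without the dimmest 25% of genes the share was 78.3%, taken over the remaining genes alone. With the mean over probe sets 44 members were above background, and Tyms lay at -0.39. With the dimmest probe set of each gene 32 were, and the share of all genes was 32.8%. There Cdt1 lay at -3.70, Pola2 at -3.60, Mcm6 at -2.58, Tyms at -2.24, Rrm1 at -1.71, Pole2 at -1.69, Prim2 at -1.67, Pola1 at -1.46, Mcm10 at -0.24 and Mcm3 at -0.09, and Orc4 (0.24), Gins1 (0.02) and Rfc1 (0.39) lost their calls. These follow from the choice of probe set, which in this setting also reset the background level. Without probe sets ending in _s_at or _x_at the calls of all 45 held, but some distances were smaller. Among these, Fen1 lay at 3.16, Gins2 at 3.22, Mcm3 at 4.10, Mcm7 at 4.37 and Mcm5 at 5.51. The 85 probe sets above background correspond to 45 genes. The median SD was 0.14 with quantile normalization and 0.13 without centring. The median difference of replicate 3 ran from -0.14 without centring, a setting chosen after seeing the data, to -0.07 when arrays were centred on genes above background, and that of replicate 1 ran from 0.01 in the same setting to 0.14 with quantile normalization. The wider set of chemosensory symbols that was planned held the same 72 genes and gave no separate value. No paired analysis was possible because the series holds 1 group.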
